A study of Capra hircus with 8 samples.

Results

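The pentose phosphate pathway was examined through 6 enzyme genes, TKT, TALDO1, PGD, PGLS, RPIA and RPE, in 8-cell goat (Capra hircus) embryos. They were chosen by symbol from the 22107 entries of the messenger RNA table. TKT was taken up because it stood out in the comparison described here, and the other symbols are those of its pathway, so the group difference of TKT is given as a description without a test. A row was found for 5 of the 6 symbols. No row carried the symbol TALDO1, and transaldolase was not analysed here. Embryos were made either by in vitro fertilisation (IVF) or by somatic cell nuclear transfer (SCNT), a method that gives an egg the nucleus of a body cell. The libraries used were 2 of IVF and 2 of SCNT embryos at the 8-cell stage, all prepared from lysed embryos by Smart-seq2, which amplifies full-length cDNA from polyadenylated RNA. The sources used here do not give the breed, the donor cell type, the number of embryos in a library or whether replicates came from separate collections. The spread between replicates may therefore be technical.

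The pathway branches from glycolysis at glucose-6-phosphate. Its oxidative arm makes NADPH, a reducing agent for biosynthesis and for glutathione, and ends in ribulose-5-phosphate. Its non-oxidative arm turns that sugar into ribose-5-phosphate for nucleotides and exchanges carbon units with glycolysis through transketolase and transaldolase. Early embryos use the pathway for antioxidant defence and for nucleotide supply.

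Values are FPKM, fragments per kilobase of transcript and per M fragments (M, 1000000), which can be compared between genes. The totals behind the scaling lay between 27.5 and 30.3 M reads per library. SCNT replicate 2 stood apart: 11025 genes reached 1 FPKM there, against 9883 in SCNT replicate 1 and 8984 and 9038 in IVF. The median absolute log2 gap between the SCNT libraries was 0.63, and between the IVF libraries 0.30. The differences of the 5 enzymes, and the list medians that rested on SCNT replicate 2, are given with and without it.

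TKT and the rest of the pathway differed in how far SCNT embryos departed from IVF embryos. TKT encodes transketolase, the thiamine-dependent enzyme that moves carbon pairs between sugar phosphates. IVF replicates 1 and 2 held 1.76 and 0.634 FPKM (mean 1.20 ± 0.795, SD, n = 2), and SCNT replicates 1 and 2 held 63.7 and 66.4 FPKM (65.0 ± 1.94, SD, n = 2). The ratio of the group means was 54.4. The other 4 enzymes were also higher in each SCNT library than in each IVF library, by ratios of 2.28 to 4.39. In bulk embryo samples, more expressing cells and more RNA per cell cannot be told apart.

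In the oxidative arm, PGLS encodes the lactonase that opens the product of the first step. PGLS was at 0.756 and 1.07 FPKM (IVF) against 2.23 and 3.38 FPKM (SCNT). It was the least abundant of the 5 enzymes in both SCNT libraries. PGD encodes 6-phosphogluconate dehydrogenase, which makes NADPH and ribulose-5-phosphate. PGD was at 1.69 and 3.19 FPKM (IVF) against 7.06 and 14.3 FPKM (SCNT). In both groups replicate 2 lay above replicate 1, by log2 gaps of 0.64 in IVF and 0.93 in SCNT.

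In the non-oxidative arm, RPIA encodes the isomerase that makes ribose-5-phosphate. RPIA was at 141 and 163 FPKM (IVF) against 254 and 439 FPKM (SCNT). It was the most abundant of the 5 enzymes in every library. RPE encodes the epimerase that makes xylulose-5-phosphate, a substrate of transketolase. RPE was at 6.57 and 6.65 FPKM (IVF) against 14.9 and 22.1 FPKM (SCNT). The ratio of RPIA to RPE mRNA was 21.5 and 24.5 in IVF and 17.0 and 19.9 in SCNT. Both SCNT ratios were below both IVF ratios, but 19.9 and 21.5 lay closer than the replicates of either group. Whether the ratio differed between groups was not tested.

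**Figure D1:**
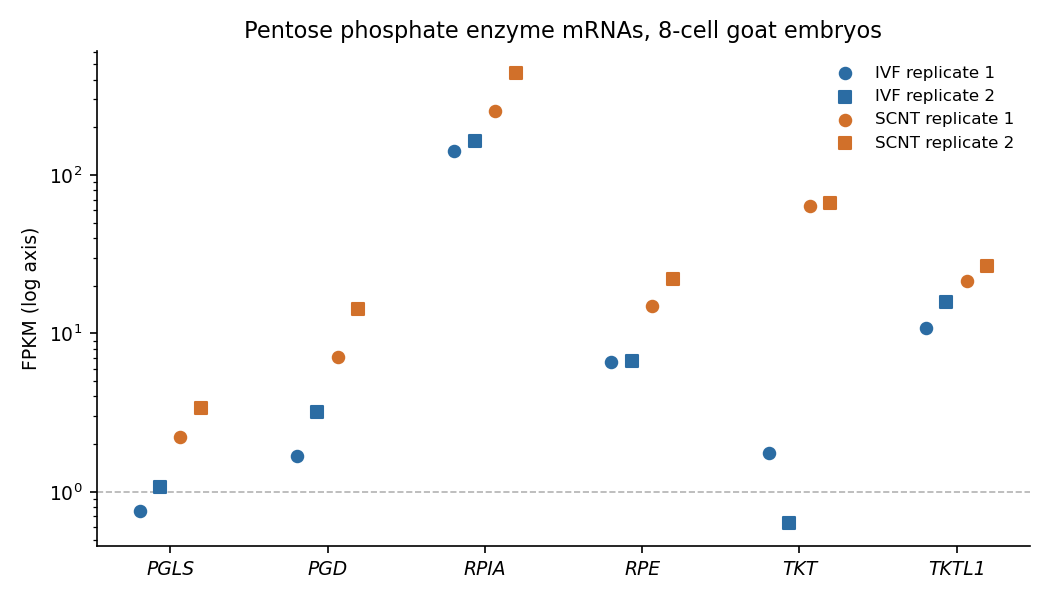
FPKM (log axis) of the 5 enzymes and of TKTL1 in each of the 4 libraries, blue for IVF and orange for SCNT, circles for replicate 1 and squares for replicate 2. TKT moved from 1.76 and 0.634 FPKM in IVF to 63.7 and 66.4 FPKM in SCNT, while the order of the other 4 enzymes was the same in all libraries; the dashed line marks 1 FPKM.

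In IVF embryos RPIA ranked first and RPE next, above PGD, TKT and PGLS. PGD lay above PGLS in both libraries, and TKT crossed them: it was above both in replicate 1 and below both in replicate 2. In replicate 1 TKT and PGD were nearly level, at 1.76 and 1.69 FPKM from 103 and 92 reads. Their 95% intervals for counting error, 1.44 to 2.13 and 1.36 to 2.07 FPKM, overlapped there. In both SCNT libraries the order was RPIA, TKT, RPE, PGD and PGLS, and no ranges of neighbours overlapped. Among all tested genes, the mean level of TKT lay at percentile 17.4 in IVF and 88.1 in SCNT. That of RPIA lay at 95.6 and 98.5.

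The low TKT values in IVF rested on few reads. The deposited values resolved into whole reads, and the smallest whole numbers for TKT were 103 and 41 reads in IVF and 3851 and 4034 reads in SCNT. Exact Poisson 95% intervals, which cover counting error alone because PCR copies cannot be told from separate molecules, ran from 1.44 to 2.13 FPKM in IVF replicate 1 and from 0.455 to 0.861 FPKM in IVF replicate 2. The IVF intervals did not overlap, as counted in reads. Whether these libraries differed in separate molecules was not tested. In SCNT the intervals ran from 61.7 to 65.7 and from 64.4 to 68.5 FPKM and overlapped. PGLS rested on fewer reads than TKT in every library, at 25 and 39 in IVF and 76 and 116 in SCNT. PGD had 92 and 192 reads in IVF.

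TKTL1 and TKTL2 encode transketolase-like proteins related to TKT. TKTL1 was at 10.8 and 15.8 FPKM (IVF) against 21.3 and 26.5 FPKM (SCNT). Its log2 difference of 0.82 ± 0.43 (SE) did not pass (limma adjusted p = 0.230). TKT was the lesser of the pair in IVF, at 0.162 and 0.0402 of the TKTL1 level, and the greater in SCNT, at 2.98 and 2.50 times that level. TKTL2 was at no more than 0.219 FPKM in any library, with 2, 6, 22 and 0 reads. The sources used here do not say how reads matching more than one of these genes were assigned.

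Differences between groups were taken on log2(FPKM + 1), SCNT minus IVF, with the standard error of a limma fit over 10303 genes. TKT differed by 4.96 ± 0.46 (SE), PGD by 1.73 ± 0.51, RPE by 1.33 ± 0.44, RPIA by 1.13 ± 0.42 and PGLS by 0.98 ± 0.39. The median over all tested genes was 0.39, so TKT lay 4.57 above it and the others 0.59 to 1.34. Adding 1 FPKM understates the change of genes at low level, TKT, PGD and PGLS in IVF among them. By size, TKT ranked 5 of 10303, PGD 784, RPE 1681, RPIA 2271 and PGLS 2811. The last place of PGLS depended on the offset. By the ratio of group means PGLS (3.07) lay above RPE (2.80) and RPIA (2.28). With 0.1 FPKM added instead, the log2 differences were 1.51 for PGLS, 1.44 for RPE and 1.14 for RPIA.

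Of the 5 enzymes, 1 was past the adjusted threshold of 0.05, TKT. Of all tested genes, 3.86% were past it, 3.02% higher and 0.844% lower in SCNT. All 5 enzymes had both SCNT libraries above both IVF libraries, an arrangement that 46.9% of tested genes showed, and none had both below, as 17.1% did. All 5 were higher at an unadjusted p under 0.05 in limma, as were 25.4% of tested genes. These counts come from the comparison in which TKT was picked. Nothing is read from them here. As deposited, 311 genes were called higher and 87 lower; after median centring the split was 169 and 228, and after quantile normalization 152 and 146. The median of all genes moved to −0.17 and 0.01 under these scalings. Relative to it, TKT lay 4.59 and 4.62 above, and PGD, RPE, RPIA and PGLS 0.47 to 1.33 above.

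**Figure D2:**
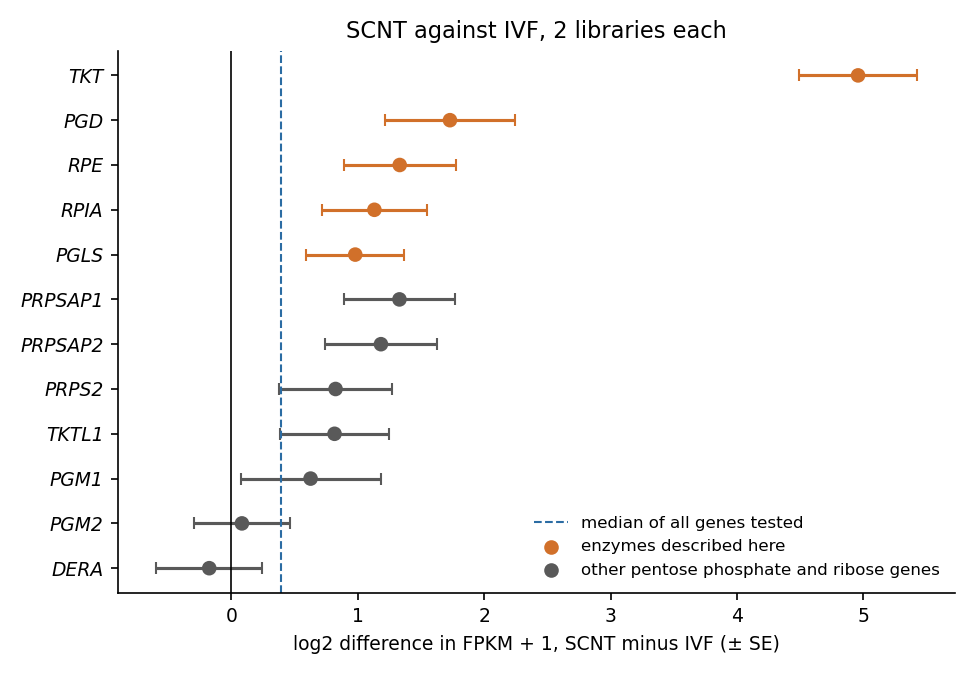
Log2 difference in FPKM + 1 (SCNT minus IVF, 2 libraries each) with its SE for the 5 enzymes (orange) and the 7 tested genes among other pentose phosphate and ribose genes (grey). TKT at 4.96 lies apart from PGD, the next at 1.73; the dashed line is the median of all genes tested, 0.39.

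The share of each enzyme in the summed FPKM of the 5 was computed within each library. TKT made up 1.16% and 0.364% in IVF and 18.6% and 12.2% in SCNT. RPIA made up 92.9% and 93.4% in IVF and 74.3% and 80.5% in SCNT. RPE kept between 3.81% and 4.36%, and PGLS between 0.497% and 0.651%, in all 4 libraries. PGD went from 1.11% and 1.83% to 2.07% and 2.63%. Shares of a sum are tied to each other, so a rise in one lowers the rest.

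The gap between the SCNT libraries enters the spread behind the comparison in which TKT was picked, and is given as a description. TKT had a log2 gap (replicate 2 minus replicate 1) of 0.06, and 5.22% of tested genes had a smaller absolute gap. The gaps of PGLS (0.44), RPE (0.54), RPIA (0.79) and PGD (0.93) were larger, all with replicate 2 above replicate 1. Over all tested genes the median gap was 0.25, and 60.7% had replicate 2 above. In IVF, TKT had the widest gap of the 5 and the only one with replicate 2 below replicate 1 (−0.76). RPE had the narrowest (0.02).

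**Figure D3:**
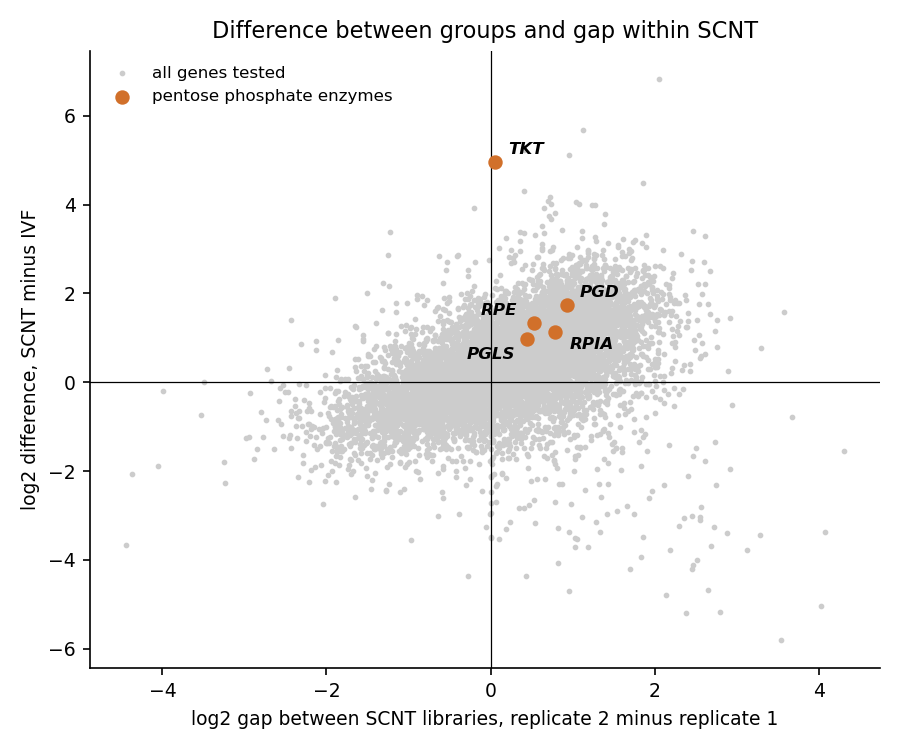
Log2 gap between the 2 SCNT libraries (x axis, replicate 2 minus replicate 1) against the log2 difference between groups (y axis, SCNT minus IVF) for all 10303 tested genes (grey) and the 5 enzymes (orange). TKT sits at a gap of 0.06 and a difference of 4.96, and the other 4 lie within the main cloud at gaps of 0.44 to 0.93.

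Without SCNT replicate 2, the log2 differences were 4.93 for TKT, 1.27 for PGD, 1.06 for RPE, 0.76 for PGLS and 0.74 for RPIA, beside a median of 0.33 over all genes. Without SCNT replicate 1 they were 4.99, 2.19, 1.60, 1.20 and 1.52, beside 0.51. TKT moved little with either library, and each of the others was larger with replicate 2 alone. With SCNT replicate 1 left out all 5 enzymes were past the threshold, but the spread then came from the closer IVF pair alone, and 3834 genes were called in that fit.

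**Figure D4:**
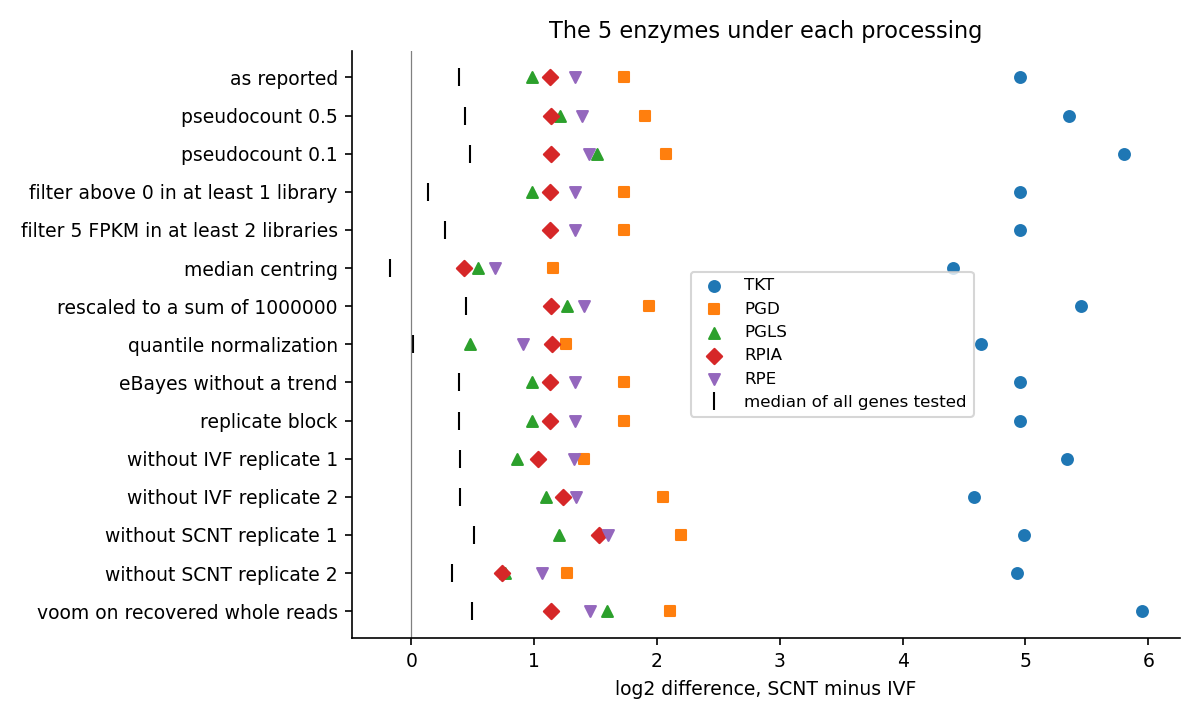
Log2 difference (SCNT minus IVF) of the 5 enzymes under the processing reported and 14 alternatives, with the median of all tested genes as the black ticks. TKT ranged from 4.41 to 5.95, and the other enzymes stayed between 0.43 and 2.19; PGLS has no point under the filter at 5 FPKM.

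Likeness of profiles was measured as the Euclidean distance between log2(FPKM + 1) values centred on each gene's mean over the 4 libraries. PGD, PGLS, RPIA and RPE lay 0.287 to 0.873 from each other, with PGLS and RPIA the closest pair. Adding 1 FPKM shrinks the profile of PGLS, a gene at low level, more than that of RPIA. By ratio of group means PGLS (3.07) was nearer to RPE (2.80) than to RPIA (2.28). Distances with a smaller offset were not computed. TKT lay 3.43 from PGD, 3.68 from RPE, 3.92 from RPIA and 4.05 from PGLS. Among the 5 genes nearest to TKT were LRRC58 (0.902), SCPEP1 (1.02) and the chemokine receptor gene CCR7 (1.21). LRRC58 was at 3.39 and 0.504 FPKM (IVF) against 42.7 and 57.1 FPKM (SCNT). It shared with TKT the lower value in IVF replicate 2. CCR7 was listed in that library at the same 0.634 FPKM as TKT, but at 0.0171 FPKM in IVF replicate 1. The latter is the value of 1 read at the length implied for TKT. The nearest to PGD was C7H5orf45 (0.0522), to PGLS TCTN3 (0.0367), to RPIA KNOP1 (0.0298) and to RPE RBM15 (0.0544). These distances rest on 4 libraries and on the same contrast, and are descriptions.

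The other genes of the pathway and of ribose metabolism came from a list of 14 symbols, of which 12 had a row and 7 were high enough to be tested. In limma 0 passed, with 2 at an unadjusted p under 0.05, and voom on the recovered reads also called 0. Over all tested genes, 3200 of 10303 had such a p in either direction, and voom called 534 of 10291. The same counts of the lists below stand beside these. Of the 7, 4 had both SCNT libraries above both IVF libraries, beside 46.9% of all tested genes. Their median log2 difference was 0.82, or 0.52 without SCNT replicate 2. H6PD, an enzyme of the endoplasmic reticulum that makes NADPH there, stayed between 0.152 and 0.469 FPKM.

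PRPS2, PRPSAP1 and PRPSAP2 encode the synthetase that activates ribose-5-phosphate for nucleotide synthesis and its associated proteins. PRPSAP1 was at 3.60 and 3.73 FPKM (IVF) against 10.6 and 10.8 FPKM (SCNT; log2 difference 1.33 ± 0.44 SE, limma adjusted p = 0.0907). PRPSAP2 (1.18, adjusted p = 0.117 in limma) and PRPS2 (0.82, 0.240) had smaller differences. Neither passed. DERA, which cleaves deoxyribose-5-phosphate, was at 36.8 and 48.0 FPKM (IVF) against 30.5 and 45.1 FPKM (SCNT), with overlapping groups (−0.17 ± 0.42 SE). The phosphomutase genes PGM1 (0.63) and PGM2 (0.08) also had overlapping groups. RBKS reached at most 0.455 FPKM and SHPK 0.0703 FPKM, and no row carried the symbol PRPS1 or RPEL1.

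Transketolase needs thiamine diphosphate. Of 9 tested genes of thiamine supply and of other enzymes with that cofactor, limma called 0 (2 at an unadjusted p under 0.05, 0 called by voom), with a median of 0.62, or 0.33 without SCNT replicate 2. Of 14 tested genes of other NADPH sources and users, limma called 0 as well, with a median of 0.73. An unadjusted p under 0.05 was found for 7, among them IDH1, which was lower in SCNT, beside 3200 of all 10303 tested genes. Voom called 2 of the list, MTHFD1 and FASN, beside 534 of 10291 genes. FASN, at 0.124 and 0.193 FPKM (IVF) against 1.15 and 4.08 FPKM (SCNT), was tested only through its SCNT values. The filter at 1 FPKM thus allowed it no other direction. MTHFD1, a folate enzyme with the highest mean of the list over the 4 libraries, was at 41.5 and 67.2 FPKM (IVF) against 144 and 223 FPKM (SCNT; 1.74 ± 0.44 SE, limma adjusted p = 0.0582). In the IVF libraries IDH1 was above it.

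Among 9 tested glycolytic enzymes that share substrates with the pathway, limma called 0 (4 at an unadjusted p under 0.05, 0 called by voom), with a median of 1.36, or 0.36 without SCNT replicate 2. The median gap between the SCNT libraries was 1.42 in this list, with replicate 2 above replicate 1 in 8 of 9. GAPDH, with the highest mean over the 4 libraries, was at 84.5 and 85.4 FPKM (IVF) against 109 and 527 FPKM (SCNT). Its log2 difference was 1.49, or 0.36 without SCNT replicate 2, and in SCNT replicate 1 TIGAR was above it. TKT, at 63.7 and 66.4 FPKM in SCNT, did not share that gap.

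Nucleotide synthesis uses the ribose that the pathway makes. Of 15 tested genes, 2 rose and none fell in limma, beside 3.02% higher and 0.844% lower of all tested genes. The median was 0.82, 5 had an unadjusted p under 0.05, and voom called 3 (UMPS, IMPDH1 and CTPS1). UMPS, which makes uridine monophosphate, was at 2.24 and 3.44 FPKM (IVF) against 23.0 and 28.0 FPKM (SCNT; log2 difference 2.80 ± 0.45 SE, limma adjusted p = 0.0280). IMPDH1, an enzyme of guanine nucleotide synthesis, was at 0.300 and 0.104 FPKM (IVF) against 2.21 and 3.73 FPKM (SCNT; 1.70 ± 0.37 SE, limma adjusted p = 0.0477). The groups did not overlap for either gene, and 46.9% of tested genes had both SCNT libraries above both IVF libraries. Both IVF values of IMPDH1 lay under 1 FPKM, so it was tested only through its SCNT values. Its lack of overlap was therefore fixed by the filter at 1 FPKM. ATIC, with the highest mean of the list over the 4 libraries though below NME1 in both IVF libraries, was at 92.8 and 96.0 FPKM (IVF) against 190 and 214 FPKM (SCNT; 1.09 ± 0.37 SE, limma adjusted p = 0.0988). The call of UMPS was lost in limma without IVF replicate 1 (adjusted p = 0.114) and without SCNT replicate 2 (0.0793). That of IMPDH1 was lost in limma after quantile normalization (adjusted p = 0.0592), without a variance trend (0.0634), without either IVF replicate (0.112 and 0.154) and without SCNT replicate 2 (0.0907).

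NRF2, encoded by NFE2L2, is a transcription factor of the antioxidant response, and pentose phosphate enzymes are among its known targets. Of 10 tested genes of this system, SQSTM1 rose and 9 did not pass in limma (median 0.78), beside 3.02% higher of all tested genes. An unadjusted p under 0.05 was found for 5, and voom called SQSTM1 alone. SQSTM1, an autophagy receptor gene, was at 0.167 and 1.80 FPKM (IVF) against 21.6 and 36.8 FPKM (SCNT; log2 difference 4.02 ± 0.56 SE, limma adjusted p = 0.0223, or 0.0824 without SCNT replicate 2). NQO1, a classic target with the highest mean of the list over the 4 libraries though below GCLC in SCNT replicate 2, was lower in each SCNT library than in each IVF library. NQO1 was at 238 and 168 FPKM (IVF) against 147 and 77.8 FPKM (SCNT; −0.89 ± 0.45 SE, limma adjusted p = 0.210), with a log2 difference of −0.44 without SCNT replicate 2. HMOX1 was listed at 0 in all 4 libraries. GCLC, of the same list, was higher in SCNT, at 36.8 and 37.9 FPKM (IVF) against 94.3 and 91.1 FPKM (SCNT). Of the 10 tested genes, 6 had both SCNT libraries above both IVF libraries, beside 46.9% of all tested genes. Only 1, NQO1, had both below, beside 17.1%.

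**Figure D5:**
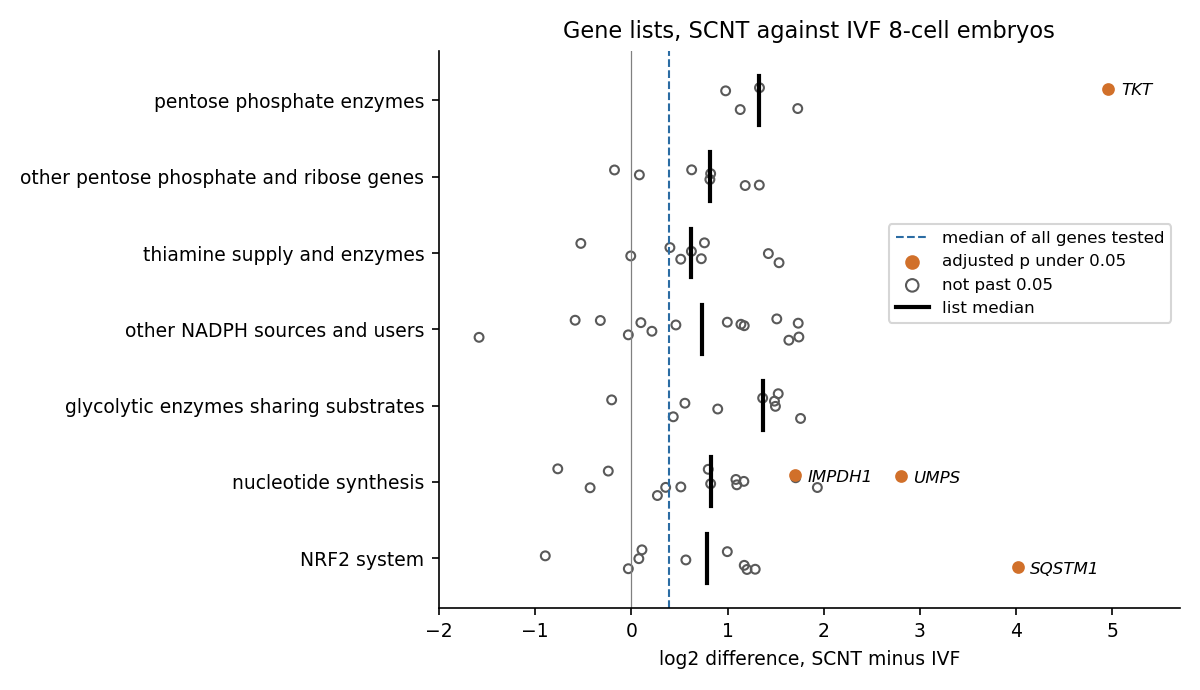
Log2 differences (SCNT minus IVF) of the tested genes of each list, filled where the adjusted p was under 0.05, with the list median as a black bar and the median of all genes tested (0.39) as the dashed line. TKT, UMPS, IMPDH1 and SQSTM1 are the filled points, and the list medians lie between 0.62 and 1.36.

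Over the 6 lists together, each gene counted once, 3 of 62 tested genes rose and none fell, beside 3.02% and 0.844% of all tested genes. Without SCNT replicate 2 the medians of the 6 lists ranged from 0.33 to 0.61, beside 0.33 over all tested genes. Without SCNT replicate 1 they ranged from 0.49 to 1.47, beside 0.51.

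The 5 nearest genes on each side of TKT in the RefSeq gene order were looked up by symbol. All 10 had a row and 4 were tested. Limma called 0 of them, with 1 at an unadjusted p under 0.05, and voom called 0. DCP1A, an mRNA decapping factor gene next to TKT, was at 21.4 and 29.1 FPKM (IVF) against 36.9 and 41.2 FPKM (SCNT; log2 difference 0.62 ± 0.41 SE). CACNA1D differed by 0.66 and SFMBT1 by −0.39. PRKCD and 5 pseudogenes or lncRNAs were below the level tested.

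The 9 oocyte and embryo markers with a row form the marker list that fits the labelled tissue. They summed to 2495 and 2720 FPKM (IVF) against 3043 and 4232 FPKM (SCNT). Limma called 1 of the 9 higher, KHDC3L, and 0 lower, beside 3.02% and 0.844% of all tested genes. An unadjusted p under 0.05 was found for 4 of the 9, and voom called KHDC3L alone. The 16 fibroblast markers summed to 135 and 125 FPKM (IVF) against 102 and 108 FPKM (SCNT). DCN, the decorin gene, held most of the IVF sum, at 94.3 and 85.5 FPKM (IVF) against 33.9 and 39.5 FPKM (SCNT; log2 difference −1.27 ± 0.39 SE, limma adjusted p = 0.0776). The other 15 summed to 40.8 and 39.3 FPKM (IVF) against 68.2 and 68.5 FPKM (SCNT). Of 10 tested fibroblast markers, limma called 2 higher, TIMP1 and TAGLN, and 0 lower, beside 3.02% and 0.844% of all tested genes, and 5 had an unadjusted p under 0.05. Voom called TIMP1 and COL3A1 but not TAGLN, and without SCNT replicate 2 limma called 0 of the 10. TIMP1 was at 0.156 and 0.637 FPKM (IVF) against 11.2 and 12.9 FPKM (SCNT). TAGLN was at 0.659 and 0.389 against 4.85 and 4.94 FPKM, and COL3A1 at 0.185 and 0.126 against 2.41 and 1.63 FPKM. All were under 1 FPKM in both IVF libraries and were tested only through their SCNT values. The filter thus allowed them only a higher call. COL5A1 and COL6A1 were listed at 0 in all libraries but SCNT replicate 1. The 9 cumulus and granulosa markers with a row summed to 84.3 and 89.9 FPKM (IVF) against 61.0 and 94.6 FPKM (SCNT). Of the 4 tested cumulus markers, 0 passed in limma or voom and 0 had an unadjusted p under 0.05, and FSHR and AMH were listed at 0 throughout. The part of other cells in the values of TKT was not tested.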

How the data were processed

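The authors deposited FPKM values for messenger RNAs of 4 libraries of 8-cell embryos, per the labels 2 IVF and 2 SCNT. Tools listed in the submitters' processing notes are HISAT2 2.2.1, HTSeq and fastp. The sources used here do not give the build, the annotation or the strand setting. The members and gene lists were chosen with earlier results of these data known. Of 22107 entries, the 10303 that reached 1 FPKM in 2 or more libraries entered a limma fit (version 3.58.1, R 4.3.3; lmFit, eBayes with a trend) on log2(FPKM + 1), two-sided, with Benjamini-Hochberg adjustment over all of them and a threshold of 0.05. The fit was tested on simulated data, and repeated with other pseudocounts, filters and scalings, without the trend, with the replicate number as a block, and without each library. Named genes were the members, all other pentose phosphate genes, in each further list those past the threshold (at most 4) and the gene with the highest mean over the 4 libraries, the tested neighbours of TKT and the nearest profiles; some genes this rule selects are not reported here.

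Totals and whole reads were recovered from the steps between FPKM values: 10291 of the tested entries (99.9%) resolved to whole numbers in all 4 libraries, to within 0.001 of a read, against 0 of 500 tried with wrong totals. Added after seeing the data, limma's voom was run on these reads. For TKTL2 the length implied, 3543 bases, equals its span in the RefSeq table (ARS1.2), which served for names and gene order alone. No sequence table was used here.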

Additional observations from a re-analysis of the deposited data

How the results depend on the processing

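With every gene above 0 in at least 1 library (20289 genes), limma called 0 genes, 0 of the enzymes and 0 of the genes of the 6 further lists (context genes), with 3661, 4 and 21 at an unadjusted p under 0.05, and TKT was not past the threshold. The filter at 5 FPKM gave 133 genes. Rescaling to a sum of 1000000 gave 1327 genes (1133 higher, 194 lower), 2 enzymes (TKT and PGD) and 8 context genes. Leaving out 1 library each gave 46 to 3834 genes, 1 to 5 enzymes and 0 to 30 context genes; the cause was not tested. PGD, PGLS, RPIA and RPE kept their direction throughout.

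With the replicate number as a block, 1924 genes, 2 enzymes (TKT and PGD) and 13 context genes were called. The gaps between replicates correlated at 0.12 between groups over 10303 genes, which does not settle whether the numbers pair libraries. Voom on the recovered whole reads, added after seeing the data, called 534 genes, TKT among the enzymes and 6 context genes.

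Signs reversed for DCP1A after median centring (−0.065) and for PGM2 after centring (−0.37) and quantile normalization (−0.43). Leaving out 1 library each gave −0.45 to 0.10 for DERA, −0.041 to 1.30 for PGM1 and −0.032 to 0.20 for PGM2, with signs reversed without SCNT replicate 1 for DERA (0.10) and PGM2, without SCNT replicate 2 for PGM1, and without IVF replicate 2 for DERA (0.012). Depth limits the IVF values of TKT, at 103 and 41 reads, and those of PGLS, at 25 and 39 reads.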

Other observations

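Among the other genes of the lists, a few stood out once their values were seen, and they were chosen for that reason. IDH1, a cytosolic source of NADPH outside the pentose phosphate pathway, was at 73.5 and 90.3 FPKM (IVF) against 44.7 and 15.6 FPKM (SCNT), opposite in direction to PGD (log2 difference −1.58 ± 0.53 SE, limma adjusted p = 0.0936). Without SCNT replicate 2 its difference was −0.85. TIGAR, whose product lowers glycolytic flux in favour of the pentose phosphate pathway, was at 36.2 and 59.4 FPKM (IVF) against 142 and 130 FPKM (SCNT; 1.53 ± 0.41 SE, limma adjusted p = 0.0650). GCLC, the catalytic subunit of the first enzyme of glutathione synthesis, was at 36.8 and 37.9 FPKM (IVF) against 94.3 and 91.1 FPKM (SCNT; 1.29 ± 0.38 SE, limma adjusted p = 0.0743). TIGAR, GCLC and PRPSAP1 resembled TKT in that the 2 SCNT libraries lay close to each other, with log2 gaps of −0.13, −0.05 and 0.02. Of all tested genes, 11.1%, 4.40% and 2.24% had a smaller absolute gap. None of the 3 passed the threshold. Such gaps were also seen in listed genes that rose little, as in SLC7A11 (gap −0.06, log2 difference 0.08).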
